A study of Mus musculus with 21 samples.

Results

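The genes of the myogenic basic helix-loop-helix (bHLH) factors, Myod1, Myog, Myf5 and Myf6, and of the MEF2 factors Mef2a, Mef2c and Mef2d were followed in 20 lists of H3K36me3 peaks. The 7 genes were taken by name from 49943 RefSeq genes on chromosomes 1 to 19, X and Y, and all 7 were found. The lists come from ChIP-seq, which sequences the DNA pulled down with a modified histone, in C2C12, an established mouse line of myoblasts, the precursor cells of muscle, that fuse to muscle fibres in culture. Wild-type (WT) cells had 2 libraries per condition, with 5 conditions in all: day 0, and day 1 and day 5 each with control medium or with methionine restriction. A pair of Setd2 knockout (KO) lines, KO line 1 and KO line 2, had 1 library each in the same 5 conditions. Every group is C2C12, and the labels give neither the content of the media, nor the nature of the Setd2 edit, nor whether a KO line is 1 clone. The measure is cover, the percent of a RefSeq gene body that lies inside the merged peaks of a library, so it is already a value per length. A cover of 0 means that no peak was called there, and it does not measure how much of the mark was present.

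The mark H3K36me3, a histone H3 trimethylated at lysine 36, is laid over the bodies of transcribed genes by the methyltransferase SETD2, which uses S-adenosylmethionine made from methionine. MYOD1 and MYF5 commit cells to the muscle line, and MYOG (myogenin) and MYF6 act in terminal differentiation. These bHLH factors bind the E-box CANNTG as dimers with E proteins. MEF2 proteins, of the MADS-box family, bind A/T-rich sites and act together with the bHLH factors at muscle genes.

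The WT libraries covered 110 to 183 Mb with 63423 to 87398 peaks, KO line 1 covered 0.307 to 74.1 Mb, and KO line 2 covered 0.00821 to 7.13 Mb. In control medium the WT libraries covered 140 and 150 Mb at day 1 and 183 and 171 Mb at day 5. Under restriction they covered 128 and 110 Mb at day 1 and 131 and 134 Mb at day 5. Read depth is unknown, because a peak list carries none, and its part in any difference below was not tested. The lists hold no measure of Setd2 RNA or protein, so they cannot check the edit. Of 8 markers of the muscle line, 6 to 8 had cover in every WT condition. Their summed mean cover was 482 to 548 points at day 0 and in control medium and 255 to 287 points under restriction. Myod1 is among these markers, with 52.6% to 72.6% at day 0 and in control medium and 0 under restriction. So the marker list is not separate from the 7 genes. Of 6 endothelial markers none had a peak in WT, the adipocyte markers stayed at or under 3.11%, and Sp7, Neurod1 and Ptprc, which define osteoblasts, neurons and leukocytes, were at 0. Runx2, Tubb3, Csf1r and Cd68 from those lists did have cover, which for Cd68 was 100% at day 0 and 0 under restriction at day 1.

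The sequence around a start of Myog, Mef2c and Mef2d is shown first, and no peak lay in these windows. Each window runs from 250 bases before to 50 bases after a RefSeq start (GRCm38.p6), 5′ to 3′. Myog (chr1:134289754-134290053, plus strand) and the first of 3 starts of Mef2c (chr13:83503784-83504083, plus strand) belong to the genes that went from no peaks to cover. Mef2d (chr3:88142122-88142421, plus strand) belongs to a gene with cover in every WT library, and its window lies inside the gene body as annotated. Capitals mark the E-box CANNTG and the MEF2-type string TATTTAT, both searched on both strands. The matches do not overlap.

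Myog: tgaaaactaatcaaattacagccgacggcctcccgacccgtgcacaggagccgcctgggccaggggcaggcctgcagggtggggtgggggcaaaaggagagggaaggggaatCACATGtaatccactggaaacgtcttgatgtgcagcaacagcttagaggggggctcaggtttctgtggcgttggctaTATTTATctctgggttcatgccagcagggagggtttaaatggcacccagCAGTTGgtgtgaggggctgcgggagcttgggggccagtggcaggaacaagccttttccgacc

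Mef2c: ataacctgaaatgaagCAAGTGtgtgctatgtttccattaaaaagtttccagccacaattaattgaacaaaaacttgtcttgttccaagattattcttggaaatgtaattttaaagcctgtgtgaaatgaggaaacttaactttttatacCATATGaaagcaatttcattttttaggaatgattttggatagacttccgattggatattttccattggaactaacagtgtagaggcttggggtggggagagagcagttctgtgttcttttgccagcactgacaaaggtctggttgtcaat

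Mef2d: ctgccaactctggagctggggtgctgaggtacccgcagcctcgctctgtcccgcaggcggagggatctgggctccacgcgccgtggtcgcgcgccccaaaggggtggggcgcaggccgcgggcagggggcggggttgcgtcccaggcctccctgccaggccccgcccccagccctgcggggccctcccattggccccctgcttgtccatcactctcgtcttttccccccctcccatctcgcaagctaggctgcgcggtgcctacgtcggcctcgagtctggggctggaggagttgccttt

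The Myog window held 2 E-boxes, cacatg 138 bases and cagttg 12 bases before the start, and TATTTAT began 61 bases before it. The Mef2c window held 2 E-boxes, and the Mef2d window, at 72% G and C, held neither string. Of 32851 promoter windows in the table, 72.3% held CANNTG and 5.6% held TATTTAT. No base of the windows of Myog, Mef2c (first start), Mef2d, Mef2a or Myf5 lay in a peak in any of the 20 libraries. The window of the third Mef2c start had 17% of its bases in a peak in 1 WT library, at day 5 in control medium. The table was matched for 5 of the 7 genes, and Myod1 and Myf6 were not matched.

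Myod1 lies on chromosome 7 (chr7:46376474-46379092, GRCm38) and is 2.62 kb long. It was covered at day 0 and in control medium, and had no peak under restriction. At day 0 the 2 WT libraries had 55.1% and 50.1% cover. At day 1 in control medium they had 67.7% and 50.2%, and at day 5 they had 66.8% and 78.4%. All 4 restricted WT libraries and all 10 KO libraries were at 0. The highest fold enrichment of the authors' peaks on Myod1 stood at percentiles 13.5 to 67.8 of the peaks in the same list, and 1 or 2 peaks lay on the gene in each of these libraries. In the day 0 libraries 1 peak began 1176 and 1307 bases into the body from its lower coordinate and ran 608 and 387 bases past its upper coordinate.

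Myog (chr1:134290004-134292548, 2.54 kb) changed from no peak to nearly full cover. Both day 0 libraries were at 0, the day 1 control libraries had 70.6% and 73.2%, and the day 5 control libraries had 91.7% and 93.4%. The 4 restricted WT libraries and the 10 KO libraries had no peak on it. In control medium the gene held 1 peak in each library. At day 1 that peak began 477 and 429 bases after the start of the body and ended 271 and 254 bases before its end. At day 5 it began 210 and 167 bases after the start and ran 284 and 227 bases past the end. Its fold enrichment stood at percentiles 66.2 and 68.0 of its list at day 1 and 94.6 and 94.2 at day 5.

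Myf5 and Myf6 are neighbours on chromosome 10, 5.92 kb apart (chr10:107482908-107486927 and chr10:107492848-107494723). Myf5 had 12.2% and 11.6% cover on day 0, 0 and 11.02% with control medium on day 1, and 0 in the other 6 WT and all 10 KO libraries. Its gene is read on the minus strand, and in 1 day 0 library and 1 day 1 library the peak lay over its 3′ end and reached 827 and 1010 bases beyond it. Myf6 had no peak in any of the 20 libraries. With mean WT covers of 3.49% and 0, both were under the 5% that a gene needed to be tested, and the other 5 genes were tested.

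**Figure D1:**
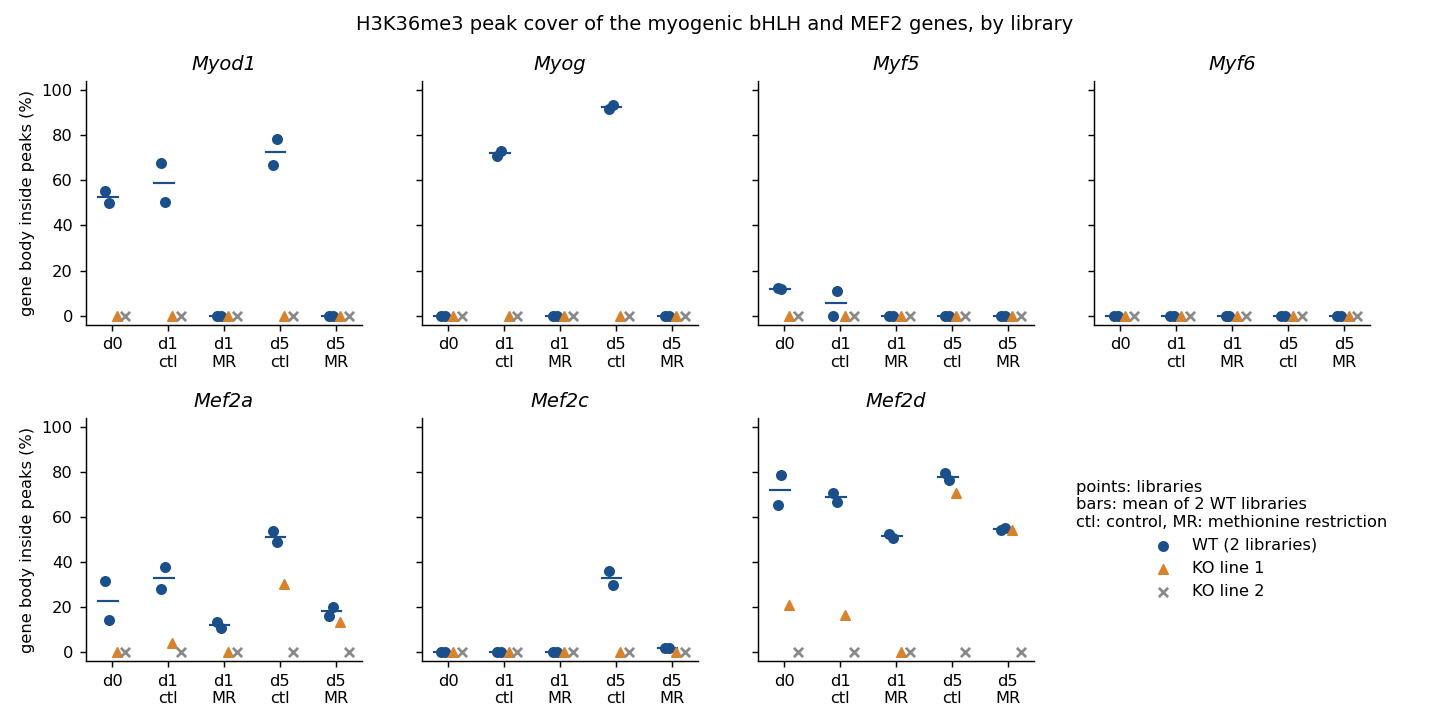
Percent of each gene body inside peaks (vertical axis) in every library, by condition (horizontal axis; ctl, control medium; MR, methionine restriction). Circles are WT libraries with a bar at the mean of 2, triangles KO line 1 and crosses KO line 2; Myog rose from 0 to 91.7% and 93.4%, and for Mef2d at day 5 KO line 1 had 70.8% and 54.1%, beside WT means of 77.9% and 54.6%.

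Mef2a (chr7:67231163-67376456, minus strand) is 145 kb long and had cover in all 10 WT libraries. The day 0 values were 31.7% and 14.3%. With control medium they were 28.2% and 38.1% on day 1 and 53.6% and 48.7% on day 5. Under restriction they were 13.3% and 10.7% at day 1 and 16.1% and 20.3% at day 5. The restricted libraries lay below the control libraries of the same day, and the day 0 and day 1 control libraries overlapped.

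Mef2c (chr13:83504017-83667079, plus strand, 163 kb) had no peak in the 6 WT libraries of days 0 and 1. At day 5 in control medium its cover was 35.97% and 29.8%, spread over 56 and 49 peaks. Under restriction at day 5 it was 1.99% and 1.89%, in 6 peaks in each library. Of its body 35.8% is also annotated to Gm52043 and Gm52044, and peaks there count for each gene.

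Mef2d (chr3:88141941-88172091, plus strand, 30.2 kb) was covered in every WT library. At day 0 the libraries had 65.5% and 78.6%. In control medium they had 70.7% and 66.8% at day 1 and 79.4% and 76.3% at day 5. Under restriction the values were 52.7% and 50.8% at day 1 and 54.2% and 55.1% at day 5, below all 6 other WT libraries. Mef2b, the remaining MEF2 gene, had no peak in WT.

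Ranked by mean cover at day 0, Mef2d came first (72.0% ± 9.24, SD, n = 2), then Myod1 (52.6% ± 3.54, SD, n = 2), Mef2a (23.0% ± 12.3, SD, n = 2) and Myf5 (11.9% ± 0.387, SD, n = 2), with no overlap between neighbours. At day 5 in control medium Myog came first (92.6% ± 1.19, SD, n = 2), followed by Mef2d (77.9% ± 2.17, SD, n = 2) and Myod1 (72.6% ± 8.23, SD, n = 2), whose libraries overlapped, and by Mef2a (51.2% ± 3.46, SD, n = 2) and Mef2c (32.9% ± 4.36, SD, n = 2). Under restriction at day 5 the order was Mef2d (54.6% ± 0.645, SD, n = 2), Mef2a (18.2% ± 2.97, SD, n = 2) and Mef2c (1.94% ± 0.0681, SD, n = 2), and all bHLH genes were at 0. Because C2C12 cultures are mixtures of single cells and fibres, fewer cells with the mark and less mark per cell cannot be told apart.

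The time course in control medium asked how the mark on these genes moves as myoblasts differentiate. Over the whole course Myog, Mef2c, Mef2a and Myod1 gained cover, Myog by the largest difference of the 5 genes tested, and Mef2d did not pass the test. Differences in points of cover were tested with limma over 9650 genes, and a gene passed at an adjusted p under 0.05. From day 0 to day 1, Myog rose by 71.9 points (SE 3.14, limma adjusted p = 4.43e-05), and no tested gene had a larger difference in this fit. It was the only 1 of 5 genes to pass, while 0.974% of all tested genes passed as higher and 5.7% as lower, and the median difference of all tested genes was -5.31. Over the same step Myod1 differed by 6.36 points (SE 6.19, limma adjusted p = 0.558), Mef2a by 10.2 (SE 5.94, limma adjusted p = 0.329) and Mef2d by -3.29 (SE 4.53, limma adjusted p = 0.691). Mef2c stayed at 0. When only the day 0 and day 1 control libraries entered the fit, the Myog call was lost (limma adjusted p = 0.135), as was every other call among the 9650 genes, of which 1924 had an unadjusted p under 0.05. Centring each library on its median moved the split of all passing genes from 94 higher and 550 lower to 233 and 122, with Myog still higher (80.4 points).

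From day 1 to day 5, Mef2c rose by 32.9 points (SE 2.13, limma adjusted p = 2.31e-05) and Myog by another 20.7 (SE 3.14, limma adjusted p = 0.00213). Mef2c passed the 5% filter only through the day 5 control libraries, so its differences from that group are a description, and its call was the same in the fit without that filter. Those 2 of 5 passed, beside 16.7% of all tested genes as higher, 5.87% as lower and a median difference of 3.81. Part of the Myog step lay at the ends of the gene: without the outer 10% of the body on each side it was 10.2 points (limma adjusted p = 0.0783). That inner body was at 100% in both day 5 control libraries, so it could not rise further. Mef2a differed by 18.1 points (SE 5.94, limma adjusted p = 0.0623), Myod1 by 13.7 (SE 6.19, limma adjusted p = 0.156) and Mef2d by 9.12 (SE 4.53, limma adjusted p = 0.194). For Mef2a and Mef2d the day 5 libraries lay above those of day 1, as in 47.4% of all tested genes. Without either WT day 5 control library Mef2c was not tested, and 1 gene passed. Centring moved the split of all passing genes from 1614 higher and 566 lower to 980 and 1163, and Myog (14.6 points) and Mef2c (26.8 points) stayed higher.

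Over the whole course from day 0 to day 5, 4 of 5 genes passed as higher, against 12% of all tested genes, with 15.6% lower. Mef2c is in that count, and its difference is again a description, since the day 5 control libraries alone brought it past the filter. Myog rose by 92.6 points (SE 3.14, limma adjusted p = 1.12e-06), Mef2c by 32.9 (SE 2.13, limma adjusted p = 1.47e-05) and Mef2a by 28.2 (SE 5.94, limma adjusted p = 0.00853). Myod1 rose by 20.01 points (SE 6.19, limma adjusted p = 0.0441), and that call was lost in 14 of 20 alternatives, over which the limma adjusted p ran from 0.0156 to 0.236. Mef2d differed by 5.83 points (SE 4.53, limma adjusted p = 0.398). Without WT day 5 control replicate 1 the Mef2a call was lost (limma adjusted p = 0.0618) and 1 gene passed, and without replicate 2 of that group 2 genes did. In both cases Mef2c, whose cover rests on these libraries, was under 5% on average and was not tested. With each library centred on its median the split of all passing genes moved from 1160 higher and 1506 lower to 1612 and 1309. The 3 time comparisons share control libraries and are not independent. Myf5 moved the other way: in a fit without the filter on low cover, over 11891 genes, it fell by 11.9 points (SE 3.01, limma adjusted p = 0.0264) from day 0 to day 5. That fall rests on 1 peak in each day 0 library, of which that of replicate 2 stood at percentile 0.252 of its list, and the day 0 mean of 11.9% was 6.09% at a −log10 q of at least 3. It holds for the body only: in WT day 5 control replicate 1 a peak lay 0.202 kb beyond the 3′ end of Myf5. In WT day 1 control replicate 1 a peak lay 0.422 kb beyond it.

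Methionine restriction was compared with control medium on the same day, to ask what limiting the methyl donor does to the mark on these genes. At day 1 under restriction Myod1 and Myog had no peak, and Mef2a and Mef2d had less cover than in control medium. Mef2c had none in either medium. Myog was also at 0 at day 0, so it had no earlier cover to lose, while Myod1 had 52.6% at day 0. The difference from control medium was -71.9 points for Myog (SE 3.14, limma adjusted p = 2.03e-05) and -59.0 for Myod1 (SE 6.19, limma adjusted p = 0.000244). It was -21.1 points for Mef2a (SE 5.94, limma adjusted p = 0.0236) and -17.01 for Mef2d (SE 4.53, limma adjusted p = 0.0190). So 4 of 5 genes passed as lower, against 36% of all tested genes (2.3% were higher), whose median difference was -8.11. The restricted libraries lay below the control libraries without overlap for these 4 genes and for 59.7% of all tested genes. A larger fall than that of Myog was seen in 0.466% of tested genes, and than that of Mef2d in 28.7%. Without WT day 1 control replicate 2, or without WT day 1 restricted replicate 2, the Mef2a and Mef2d calls were lost and 2 genes passed. Without replicate 1 of the control group Mef2d lost its call (limma adjusted p = 0.101), and without replicate 1 of the restricted group Mef2a did (limma adjusted p = 0.0647).

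At day 5, all 5 tested genes passed as lower, against 41.5% of all tested genes (4.28% were higher) and a median difference of -9.25. That count includes Mef2c, which passed the filter only through the day 5 control libraries, so its difference is a description. All 5 were without overlap between media, as were 65.4% of all tested genes in this direction. Among the bHLH genes the difference was -92.6 points for Myog (SE 3.14, limma adjusted p = 1.87e-06) and -72.6 for Myod1 (SE 6.19, limma adjusted p = 6.72e-05). Among the MEF2 genes it was -33.0 points for Mef2a (SE 5.94, limma adjusted p = 0.00261), -30.9 for Mef2c (SE 2.13, limma adjusted p = 2.54e-05) and -23.2 for Mef2d (SE 4.53, limma adjusted p = 0.00390). A larger fall than that of Myog was seen in 0.0311% of tested genes. The day 1 and day 5 comparisons use separate libraries. Cover fell over the whole lists too: with each library centred on its median, the split of all passing genes at day 1 moved from 222 higher and 3473 lower to 3594 higher and 1263 lower, and at day 5 from 413 and 4002 to 3811 and 1398. On that centred scale Myog (-56.4 and -75.7 points at days 1 and 5) and Myod1 (-43.5 and -55.7) stayed lower. Mef2d (-1.55 and -6.33) and, at day 1, Mef2a (-5.65) no longer passed, and Mef2c, at 0 in all 4 libraries of day 1, came out at 15.5 points.

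A stricter peak threshold bore on the weaker peaks. With only peaks of −log10 q of at least 3, the mean cover of Myod1 was 25.05% at day 0 and, with control medium, 36.8% on day 1 and 58.0% on day 5, and its fall at day 1 did not pass (limma adjusted p = 0.152). Myog kept 71.9% and 92.6% under that threshold, and Mef2c at day 5 went from 32.9% to 10.6%. With all WT lists cut to the same covered length by fold enrichment, Myod1 and Mef2c dropped under the 5% needed for a test. Of the 3 genes left, Myog and Mef2a passed as lower on both days and Mef2d did not.

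The fall under restriction was then compared between days, as the difference of the differences. Mef2c had a fall at day 5 that exceeded that of day 1 by 30.9 points (difference -30.9, SE 3.01, limma adjusted p = 0.000932), where its cover at day 1 was 0 in both media. For Myog the fall was deeper by 20.7 points at day 5 (difference -20.7, SE 4.44, limma adjusted p = 0.0352), where its cover in control medium was larger. This call was lost in 12 of 21 alternatives, 8 of them the leaving out of a day 1 or day 5 library. These 2 of 5 stand beside 3.55% of tested genes with a deeper fall at day 5 and 1.6% with a shallower one. The split of all passing genes, 343 deeper and 154 shallower, turned to 246 and 350 with lists of equal length and to 218 and 322 at a −log10 q of at least 3. As Mef2c was at 0 in both media at day 1, and Myog at 0 under restriction on both days, these differences carry the gain in control medium. Mef2c entered the test only through the day 5 control libraries, so its difference is a description. Without WT day 5 control replicate 1 or 2 neither passed, since Myog lost its call and Mef2c was not tested. For Myod1 (-13.7 points, limma adjusted p = 0.445), Mef2a (-11.8, limma adjusted p = 0.495) and Mef2d (-6.21, limma adjusted p = 0.658) no difference between days passed.

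Myod1 and Myog are short genes. Among genes covered in control medium, a cover of 0 under restriction was more frequent for short genes, a comparison made after the values were seen. Of 176 genes of 2 to 3.5 kb with at least 50% cover in both day 1 control libraries, 39 (22.2%) were at 0 in both restricted libraries. That share was 1.47% among genes of 3.5 to 30 kb and 0 of 1149 among longer ones. At day 5 it was 23 of 173 (13.3%), 1.03% and 0 of 1515. The part of gene length in the cover of 0 on Myod1 and Myog under restriction was not tested.

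**Figure D2:**
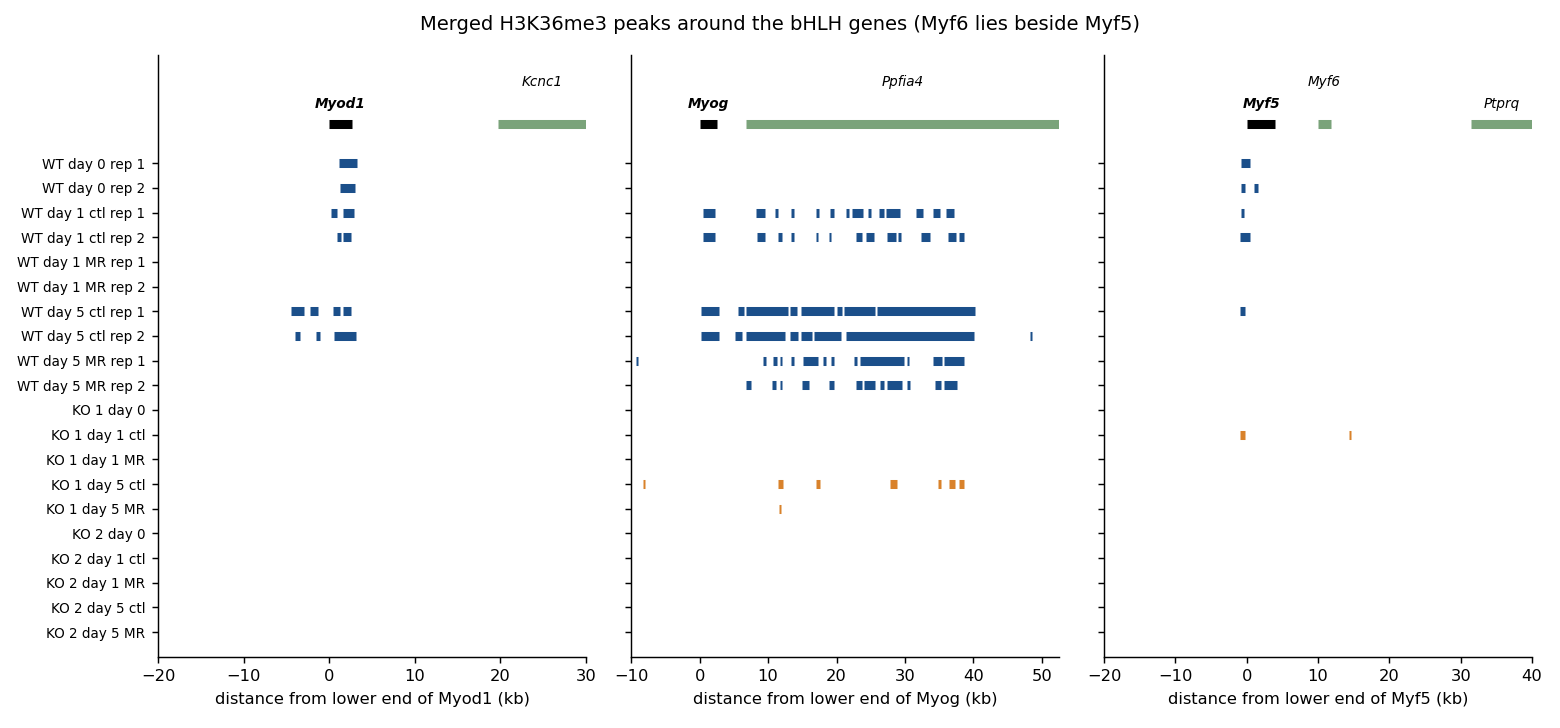
Merged peaks around Myod1, Myog and Myf5 in the 20 libraries (rows: WT blue, KO line 1 orange, KO line 2 with no peak in view), by distance in kb from the lower end of the named gene. Black bars are the named genes and green bars their annotated neighbours. On Myog and on Ppfia4, which begins 4.23 kb beyond it, peaks appear in the control libraries of days 1 and 5. Under restriction at day 5 peaks lie on Ppfia4 (29.2%) and not on Myog.

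The flanks show where peaks lay when a gene had none. Ppfia4, which encodes a liprin scaffold protein, lies 4.23 kb beyond the 3′ end of Myog. Its mean WT cover went from 1.05% at day 0 to 23.8% (day 1) and 66.7% (day 5) with control medium. The restricted groups had 0 on day 1 and 29.2% on day 5. So at day 5 under restriction Myog had no peak, and its neighbour had peaks that were absent under restriction at day 1. These were weak peaks: at a −log10 q of at least 3 the 50 kb beyond Myog went from 28.0% to 1.89% in that group, from 22.01% to 4.92% at day 1 and from 65.4% to 62.5% at day 5 with control medium. The 50 kb on the other side of Myog held no peak in control medium. The 50 kb below Myod1 had 0.364% on day 1 and, on day 5, 10.9% ± 4.76 (SD, n = 2) with control medium, and was at 0 in the restricted libraries, but at a −log10 q of at least 3 the day 5 value was 1.22%. The 50 kb flanks of Myf5 and Myf6 held at most 2.35% in the WT means. In KO line 1 at day 1 in control medium the lower flank of Myf5 held 1.37%.

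Among the MEF2 genes, Lysmd4, 2.69 kb beyond the 3′ end of Mef2a, had 49.3% ± 14.2 (SD, n = 2) cover at day 5 in control medium and 4.92% ± 6.96 (SD, n = 2) with methionine restricted. The 50 kb flanks of Mef2c held no peak except 0.945% on the upper side at day 5 in control medium. Iqgap3, 20.9 kb below Mef2d, encodes a scaffold protein of cell division. Its mean WT cover was 94.1% at day 0, 89.7% (control) and 88.3% (restricted) on day 1, and 21.3% and 2.24% on day 5. So Iqgap3 was lower at day 5 in both media. Mef2d had 72.0% at day 0, and 77.9% (control) and 54.6% (restricted) on day 5.

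**Figure D3:**
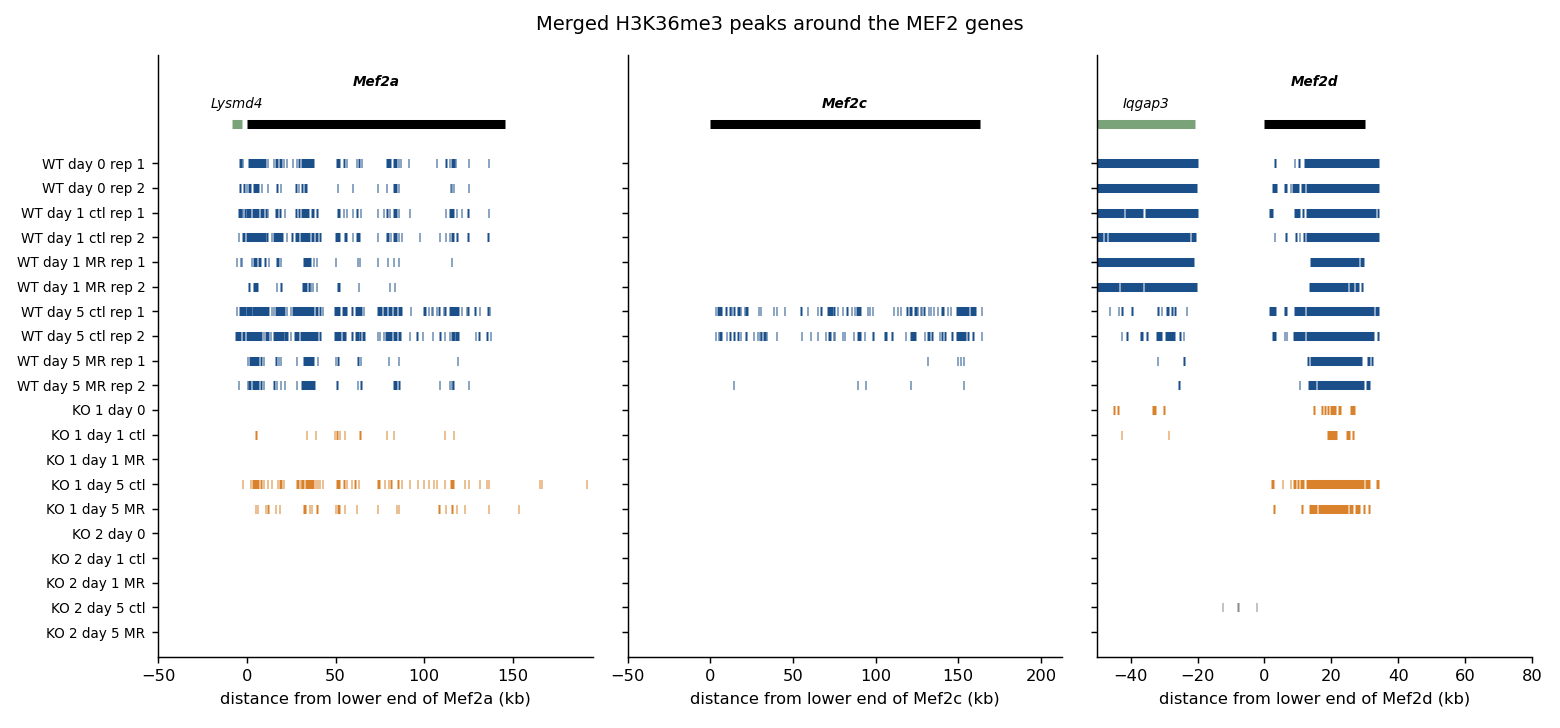
Merged peaks around Mef2a, Mef2c and Mef2d in the 20 libraries (rows and colours as for the bHLH genes), by distance in kb from the lower end of each gene. Mef2c holds 56 and 49 peaks only in the day 5 control libraries and 6 in each day 5 restricted library, and Mef2d keeps a block over its 3′ part in all WT libraries.

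Within the bodies the 3 MEF2 genes differed in layout. Mef2d carried 1 unbroken block over its 3′ part. Inside the body it measured 17.7 to 18.4 kb (58.6% to 60.9% of the body) in the 6 libraries of day 0 and control medium, and 11.7 to 15.7 kb in the restricted ones. In those 6 libraries the block ran 2468 to 4023 bases past the 3′ end of the gene, and in the restricted ones it stopped 270 to 5244 bases short of it. With the body split into 10 equal parts from 5′ to 3′, parts 6 to 10 were covered to 100% at day 0 and in control medium. Parts 1 to 3 had 38.2%, 21.0% and 32.9% on day 5 with control medium and were at 0 in the restricted means of both days. Part 10 had 74.0% and 80.8% under restriction at days 1 and 5, so cover was lower at both ends of Mef2d.

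Mef2a held 26 to 40 separate peaks in the 6 WT libraries of day 0 and control medium and 17 to 26 in the restricted ones. No unbroken stretch exceeded 8.46% of its body. Its cover was highest toward the 3′ end: at day 5 in control medium part 1 had 13.8% and part 10 had 87.5%, and under restriction they had 0 and 57.7%. Mef2c at day 5 in control medium had 40.3% in part 1, 8.98% in part 4 and 64.0% in part 10.

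**Figure D4:**
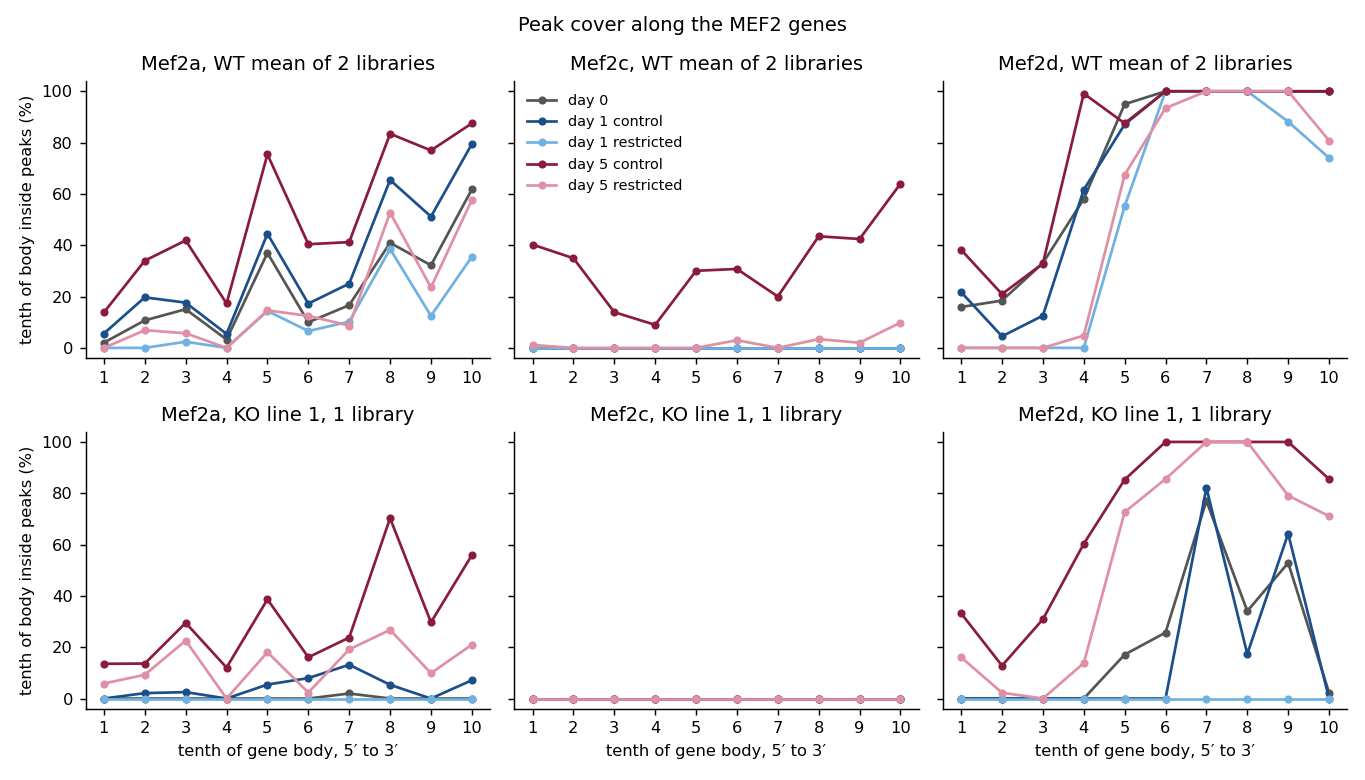
Mean percent of each of 10 equal parts of the body inside peaks (vertical axis) from 5′ to 3′ (horizontal axis) for Mef2a, Mef2c and Mef2d, in WT (upper row, mean of 2 libraries) and KO line 1 (lower row, 1 library), 1 line per condition. Mef2d in WT is at 100% over parts 6 to 10 at day 0 and in control medium and at 0 in parts 1 to 3 under restriction.

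In the KO lines the bHLH genes had no peak at all, while Mef2a and Mef2d each had peaks in 4 of the 5 libraries of line 1. Low cover in line 1 was common: genes with at least 50% mean WT cover had a median of 3.42% of their WT mean at day 0. For day 1 this median was 0.821% (control) and 0 (restricted). The share of such genes without any KO peak was not counted, so whether the bHLH genes stand out was not tested. The lists of line 1 differed in size. They covered 17.7 Mb at day 0, 13.9 and 0.307 Mb at day 1 in control and restricted medium, and 74.1 and 45.8 Mb at day 5. The restricted day 1 list held 791 peaks, and no gene reached 50% cover in it. The part of list size in the values of line 1 was not tested. KO line 1 had a Mef2d cover of 20.9% at day 0, 16.4% and 0 at day 1 in control and restricted medium, and 70.8% and 54.1% at day 5. At day 5 these were 90.9% and 98.9% of the WT mean in the same medium. Over all genes with at least 50% mean WT cover the median of that ratio was 39.6% and 2.92%, and 14.2% and 5.205% of them were at or above the ratio of Mef2d. The block of Mef2d in line 1 at day 5 in control medium was 17.2 kb long. Mef2a in line 1 went from 0.196% at day 0 to 30.3% (control medium) and 13.5% (restriction) at day 5, which are 59.2% and 73.9% of WT, and was at 0 under restriction at day 1. Of the genes with at least 50% mean WT cover, 35.5% and 9.21% were at or above these day 5 ratios. Myog and Mef2c, at 92.6% and 32.9% in WT on that day, had no peak in line 1. In line 2, Mef2d and Mef2a were at 0 in all 5 libraries, and Mef2c had 0.186% and 0.340% at day 5.

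WT exceeded the KO libraries by 48.8 points for Mef2d and by 22.7 points for Mef2a (exact two-sided permutation within condition, 10 WT and 10 KO libraries, p = 0.000257, the smallest possible, Benjamini-Hochberg adjusted over 9650 genes 0.000345). For both genes every WT library lay above both KO libraries in all 5 conditions, a count that was not made over all tested genes. For Mef2d at day 5 under restriction the margin was slight, with 54.19% in WT replicate 1 and 54.05% in KO line 1. For Myod1 the difference was 36.8 points (exact permutation p = 0.00926, adjusted 0.0100). For Myog (32.9 points) and Mef2c (6.91 points), at or near 0 in both genotypes in 3 of 5 conditions, the test gave an exact permutation p of 0.0556 and an adjusted p of 0.0573. With the other conditions tied this is the smallest p these genes could reach, so they could not pass whatever the difference. The 3 other genes passed, as did 96.2% of all tested genes. The KO libraries are the same 2 lines in each of the 5 conditions, and the permutation treats them as separate, so its p does not measure the spread between lines. The labels name KO lines, while the peak names inside the lists call the same libraries replicates of a KO group. With 1 library per line and condition, the difference between the lines has no replicate.

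The other genes of the pathway were taken as lists from textbook knowledge. The 3 E proteins, which pair with the bHLH factors, are encoded by Tcf3, Tcf4 and Tcf12. Under restriction at day 5 all 3 passed as lower, beside 41.5% of all tested genes. The median of the 3 was -14.3 points beside -9.25 over all tested genes. At day 1 it was 2 of 3, beside 36% of all tested genes. From day 0 to day 5 in control medium 1 of 3 passed as higher, beside 12% of all tested genes. It was Tcf4, from 12.2% to 28.4%. At day 5 Tcf3 had 87.6% with control medium and 76.3% with restriction, so this partner kept most of its cover.

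Of 12 genes for inhibitors of bHLH factors 8 were tested. Id1 and Id3, whose products sequester E proteins, had 54.5% and 67.2% cover at day 0 and 0 in every later WT group, a fall by 54.5 (SE 9.14, limma adjusted p = 0.0140) and 67.2 points (SE 4.19, limma adjusted p = 0.000279) by day 1. Heyl, a Notch target, rose from 15.9% to 74.6% (limma adjusted p = 0.000703) in that step. In all, 1 of 8 rose and 3 of 8 fell from day 0 to day 1, beside 0.974% and 5.7% of all tested genes. Id1, Id3 and Twist2 passed the 5% filter only through the day 0 libraries, so their falls from that group are a description. Id2, with 21.9% at day 0 and 0 later, was under the filter and not tested. Under restriction 4 of 8 fell at day 1 and 4 of 8 at day 5, and none rose, beside 36% and 41.5% of all tested genes as lower. On both days they were Bhlhe41, Hes1, Hey1 and Heyl, named after their values were seen. The others had little or no cover in control medium. Id1 and Id3 were at 0 in both media, and Twist2 had at most 1.43%. Msc had 9.81% in control medium and 9.45% under restriction at day 1, and 0 at day 5. Bhlhe41 went from 64.0% to 0 at day 1 and from 82.9% to 0 at day 5, and Hes1 from 52.7% to 0 at day 5.

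Among the class IIa histone deacetylases, which bind and repress MEF2, 3 of 4 genes were tested, and Hdac9 had under 0.3% cover in WT. At day 5 under restriction 2 of 3 fell, beside 41.5% of all tested genes, and the list's median of -9.17 points was close to that of all genes (-9.25). Hdac5 went from 60.9% to 33.1% (limma adjusted p = 0.00287) and Hdac4 went from 32.8% to 23.7% (limma adjusted p = 0.0308). From day 0 to day 5 in control medium Hdac5 rose from 41.9% to 60.9% (limma adjusted p = 0.0249), and Hdac7 fell from 48.8% to 31.6% (limma adjusted p = 0.00737).

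Of 11 genes for coactivators and kinases of these factors 10 were tested. From day 0 to day 1 none passed, beside 0.974% of all tested genes as higher and 5.7% as lower. From day 0 to day 5, where 12% of all tested genes were higher and 15.6% lower, only Kat2b passed. This acetyltransferase gene fell from 28.8% to 16.5% (limma adjusted p = 0.0174). Under restriction 6 of 10 fell at day 1 and 6 of 10 at day 5, beside 36% and 41.5% of all tested genes, with medians of -10.3 and -16.4 points beside -8.11 and -9.25. At day 5 they included Maml1, a Notch coactivator that also works with MEF2C, from 59.4% to 27.1% (limma adjusted p = 0.000517), and Mapk7, the kinase ERK5, from 79.0% to 56.5% (limma adjusted p = 0.00205).

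Of 11 genes for factors upstream of the family 8 were tested. Under restriction 5 of 8 fell at day 1 and 6 of 8 at day 5, beside 36% and 41.5% of all tested genes. Tead4 rose from 48.6% at day 0 to 83.4% at day 5 with control medium (limma adjusted p = 0.000629) and had 23.3% under restriction (limma adjusted p = 3.54e-05). Pax3 had no peak in WT, and Pax7 had 1.04% to 6.03%.

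The last list holds muscle genes that bHLH and MEF2 factors are known to act on. Of 20 such genes 19 were tested, and Des, Chrna1 and Cav3 are also in the marker list. From day 0 to day 5 in control medium 14 of 19 rose and none fell, with a median of 48.6 points beside -1.20 over all tested genes, of which 12% rose. The 5 that did not pass were Chrna1, Chrnb1, Chrnd, Des and Cdkn1a, named after their values were seen. Mymx and Cav3 had WT cover only at day 5 in control medium, and Ckm had at most 7.53% in any other WT group. These genes entered the test through the day 5 control libraries, so their differences from that group are a description. Mybph, a myosin-binding protein gene, went from 0 to 98.7% (limma adjusted p = 4.04e-06), and Acta1, skeletal actin, from 0 to 93.1% (limma adjusted p = 5.10e-05). Between days 0 and 1 it was 9 of 19 that rose, and between days 1 and 5 14 of 19, beside 0.974% and 16.7% of all tested genes. Ckm, the muscle creatine kinase, rose from 1.76% at day 1 to 69.8% at day 5 (limma adjusted p = 6.44e-05). Under restriction 13 of 19 fell at day 1 (median -22.9) and 18 of 19 at day 5 (median -48.2), and none rose, beside 36% and 41.5% of all tested genes as lower. At day 5 Chrng, the fetal acetylcholine receptor subunit, went from 91.8% to 0 (limma adjusted p = 1.83e-06) and Mybph from 98.7% to 1.97% (limma adjusted p = 8.70e-06). The fall at day 5 was deeper than at day 1 for 8 of 19, beside 3.55% of all tested genes, and cover that appeared only after day 1 enters this count.

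**Figure D5:**
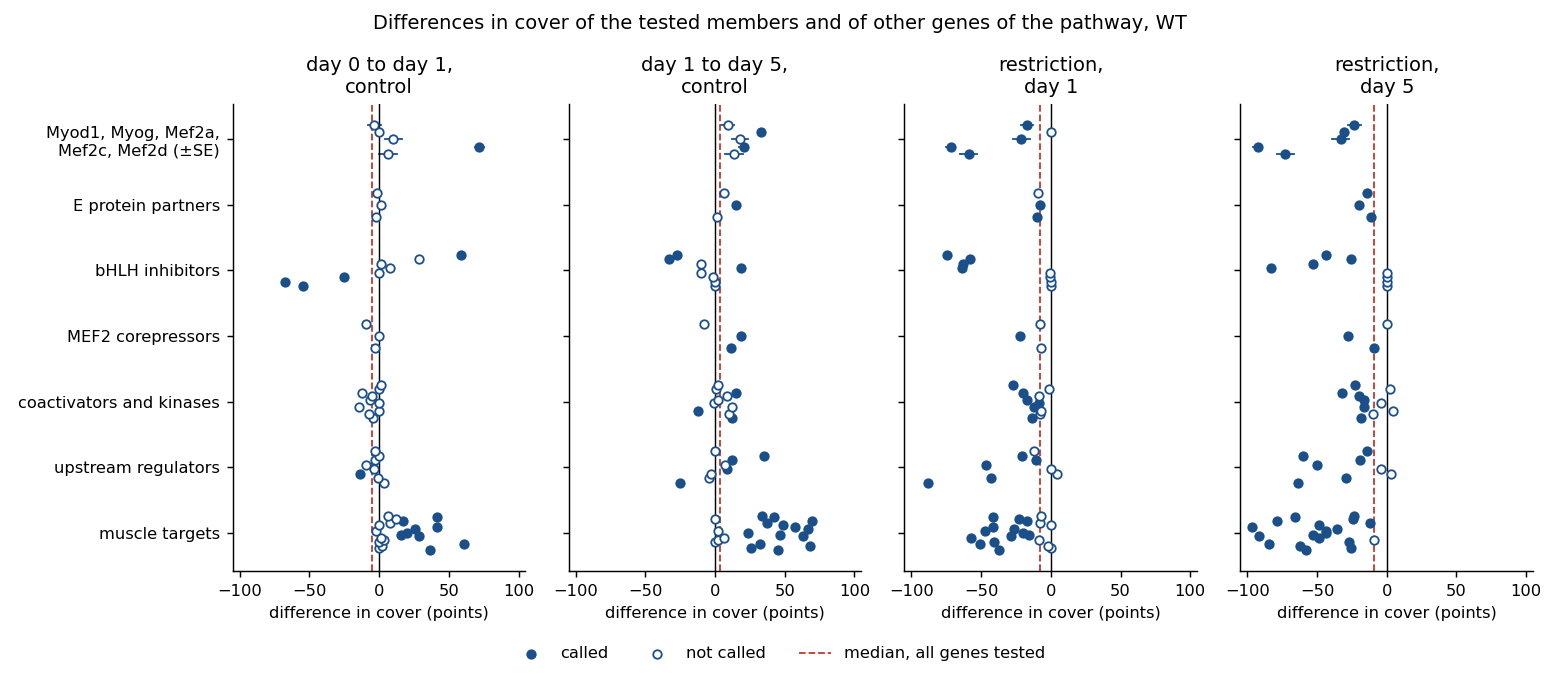
Differences in cover in points (horizontal axis) for the 5 tested genes (top row, bars ± SE) and for the genes of the 6 lists (rows), WT, in 4 comparisons. Filled points passed at an adjusted p under 0.05 by limma and the dashed line is the median of all 9650 genes tested. Muscle targets lie to the right from day 1 to day 5 (14 of 19 passed) and to the left under restriction at day 5 (18 of 19 passed). The 19 include genes that passed the filter only through the day 5 control libraries.

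The genes whose cover ran most like that of a member over the 10 WT libraries were named among 4891 genes that, like it, ranged over at least 30 points. The libraries share conditions and list lengths, so Pearson's r is given as a description. For Myog they were Acta1 (r = 0.972), Rgma (0.971) and Matn2 (0.966). For Mef2c they were Mypn (r = 0.9998), Cap2 (0.9996) and Tmem182 (0.9995), which like Mef2c had at most 1.497% cover at days 0 and 1 and 46.2%, 61.5% and 60.4% at day 5 in control medium. For Myod1 they were Arrdc2 (r = 0.985), Prpf19 (0.984) and Bhlhe41 (0.979), and Arrdc2 and Bhlhe41 were at 0 under restriction on both days. For Mef2a they were Zbtb18 (r = 0.984), Kdm2a (0.980) and Tob1 (0.976). The cover of Mef2d ranged over 28.6 points and was not compared.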

How the data were processed

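H3K36me3 ChIP-seq libraries of C2C12 cells, 20 in all, were deposited as 1 peak list each in a 9-column broad-peak layout. Per the labels' protocols, Drosophila chromatin was added as a spike-in, but the values used here were not scaled to it. The build is GRCm38, per the submitters' processing notes; the caller, its control and its filters are not given in the sources used here. The fold enrichment (ratio), the −log10 p and the −log10 q of each peak are the authors' deposited values, used only to filter, rank or place peaks within a list; the authors' score column was not used. The lowest −log10 q in the lists was 1.00. The lists carry no depth, so no counting interval is given, and their number per group limits the precision. The input was not used here.

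Peaks of a library were merged where they touched, and cover was the percent of a gene body (RefSeq table, GRCm38.p6) inside them, for the 20311 protein-coding genes that span 1 kb or more. Genes with a mean of at least 5% over the 10 WT libraries (9650) were tested with limma 3.58.1 in R 4.3.3 (trend, robust; 5 groups in 1 fit; Benjamini-Hochberg adjusted p). KO and WT were compared by exact permutation within condition. Nothing says that replicates came from separate cultures, so p-values measure only the spread between these samples, which may be technical. The 7 genes and all lists were chosen with earlier results of these data known. All 7 genes are named, with up to 2 genes per list, direction and comparison, the largest differences among those that passed, of which a part is given. Some named genes of the upstream list are not reported here. For likeness, the 3 genes with the highest r were named. Fits and interval arithmetic were tested on simulated data. Alternatives were a −log10 q of at least 3, lists cut to 110 Mb, gaps of 1 kb merged, bodies trimmed by 10%, no filter on cover, genes of at least 2 kb, centring, an arcsine scale, plain moderation, only the groups compared, a replicate block, and each library left out.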

Additional observations from a re-analysis of the deposited data

Results flagged for a closer look

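In limma's interaction test the restriction effect differed between days for 2 genes. Both were at 0 in a restricted group, so the differences restate the gain in control medium between the days, less what was left under restriction at day 5. For Mef2c it was -30.9 points (SE 3.01, limma adjusted p = 0.000932): the gene had no peak at day 1 in either medium, and at day 5 it had 32.9% in control medium and 1.94% under restriction. That value is a description, since Mef2c entered the test only through the day 5 control libraries. For Myog it was -20.7 points (SE 4.44, limma adjusted p = 0.0352): cover was 0 under restriction on both days, and in control medium it was 71.9% at day 1 and 92.6% at day 5. The Myog call was lost in 12 of 21 alternatives, the replicate block among them (limma adjusted p = 0.0607).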

How the results depend on the processing

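Over the single genes, 637 alternative fits were made: 585 kept direction and side of the threshold, 42 lost the call, 6 gained it and 4 changed direction. The 4 were differences that had not passed: Mef2d from day 0 to day 1 (5.24 points when centred, 3.25 without WT day 0 replicate 2 and -9.82 without replicate 1), Mef2d from day 0 to day 5 (-0.706 without WT day 0 replicate 1, in a range from that to 12.4) and Myod1 from day 0 to day 1 (-2.39 without WT day 1 control replicate 1 and 15.1 without replicate 2). Counts of the 5 genes that passed were as follows. With lists of equal length 2 passed under restriction on each day (4 and 5 in the full fit), 2 from day 0 to day 5 (4), 1 from day 1 to day 5 (2) and 1 between days (2), of 3 genes left to test. A −log10 q of at least 3 gave 2 from day 0 to day 5 and 0 between days by limma, where 1761 of 8286 genes had an unadjusted p under 0.05. With only the groups compared it was 0 from day 0 to day 1 (1) and 2 from day 0 to day 5. Between days, trimmed bodies gave 1 and centring 1. Leaving out each library in turn gave 2 to 4 under restriction at day 1, 4 to 5 at day 5, 1 from day 0 to day 1, 1 to 4 from day 0 to day 5, 1 to 3 from day 1 to day 5 and 0 to 2 between days. A lone sample of a group was then assumed to vary like the other groups. Where the lowest count left out a day 5 control library, Mef2c was not tested. In the KO comparison 2 or 3 passed in all alternatives run (3). The cause of these changes was not tested, except that equal length and the stricter threshold leave fewer genes to test. Over all genes, the number passing changed by over 1.5 times in these settings, left-out libraries aside: restriction at day 1 from 3695 to 2340 and from day 0 to day 1 from 644 to 204 with equal length; restriction at day 5 from 4415 to 2942 and from day 1 to day 5 from 2180 to 1306 at the stricter threshold; from day 0 to day 1 to 355 centred and 0 with only the groups compared; from day 0 to day 5 from 2666 to 1547 with only the groups compared; between days from 497 to 313 on the arcsine scale. With equal length the higher and lower split was 679 and 1661 for restriction at day 1, 1284 and 1714 at day 5, 568 and 910 from day 1 to day 5 (1614 and 566) and 350 and 246 between days (154 and 343). Leaving out single libraries gave 2399 to 4036, 2743 to 4716, 156 to 975, 1771 to 2684, 1099 to 2688 and 217 to 653 for restriction at day 1 and at day 5, day 0 to day 1, day 0 to day 5, day 1 to day 5, and between days. Same-numbered replicates did not deviate together (correlations -0.432 to 0.0631). The replicate block gave 1 between days (2), took the call from Myod1 between day 0 and day 5 (limma adjusted p = 0.0627), which left 3 (4), and left the other counts of members as they were. Of 140 alternative levels, 37 moved by more than 1 SD. Unknown depth limits every cover of 0.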
